A study of Mus musculus with 4 samples.

Results

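The p53 pathway and the BCL-2 family were followed through 9 genes in primary cultures of the mouse prefrontal cortex (PFC) grown with or without FGF2. The members are Trp53, Cdkn1a, Mdm2, Bax, Bbc3, Pmaip1, Bcl2, Bcl2l1 and Bcl2l11, and they were taken by name, through their Ensembl identifiers in GENCODE M21, from the 55421 genes listed for each library. PFC of wild-type C57BL/6 mice at postnatal day 0 was dissociated and kept in culture for 10 days, in a neurobasal medium with B27 that all cultures shared. FGF2, a growth factor that acts on neural progenitors and glia, was present at 5 ng/mL in 2 libraries and was not added in the other 2. The library titles end in B1 or B2, an ending that they do not explain, and the study's methods give technical replicates for all but a few human samples, so it is open whether both libraries of a group were separate cultures. The p-values below therefore measure the spread between libraries, which may be technical.

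The protein p53, made from Trp53, is a transcription factor that accumulates after DNA damage and other stresses and switches on genes that stop the cell cycle or start apoptosis. Its targets include Cdkn1a, which encodes the cyclin-dependent kinase inhibitor p21, and Mdm2, which encodes the ubiquitin ligase that sends p53 itself to degradation. In the mitochondrial route of apoptosis, BAX opens the outer membrane of the mitochondrion, and BCL-2 and BCL-XL (Bcl2l1) hold it closed. The BH3-only proteins PUMA (Bbc3), NOXA (Pmaip1) and BIM (Bcl2l11) act against survival proteins of the BCL-2 family. In the developing cortex this machinery sets how many newborn neurons and progenitors survive.

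The 4 libraries held between 9166432 and 10799886 counts on genes, and levels are given in CPM (the count of a gene relative to its library's total, corrected by the TMM method). A count of 3 corresponds to 0.278 to 0.327 CPM before that correction. All 10 neuronal, all 8 astrocyte and all 8 oligodendrocyte lineage markers passed the expression filter. The summed neuronal markers lay at 3640 to 3802 CPM with FGF2 and 5381 to 5387 CPM without it. Astrocyte markers summed to 11985 to 12097 against 7229 to 7277 CPM, oligodendrocyte lineage markers to 1580 to 1600 against 489 to 504 CPM, and proliferation genes to 251 to 256 against 344 to 350 CPM. Microglial markers stood at 18.2 to 19.2 against 8.38 to 12.7 CPM. Endothelial markers stood at 5.68 to 8.57 against 2.66 to 4.24 CPM, with the endothelial marker Cldn5 at 0 counts in every library. Meningeal and mural markers summed to 62.8 to 66.2 against 50.1 to 51.8 CPM, but single genes went both ways. Pdgfrb (49.0 and 46.4 against 28.6 and 28.8 CPM) and Rgs5 (3.96 and 5.07 against 1.14 and 1.29 CPM) were higher with FGF2. Col1a1 (1.54 and 2.03 against 8.73 and 7.65 CPM) and Col1a2 (2.09 and 0.91 against 4.18 and 5.71 CPM) were lower. The groups overlapped for Dcn, Lum and Acta2. The marker sums thus differed with the treatment, and the part of cell makeup in the results below was not tested. In these bulk libraries, fewer cells that express a gene and less of its RNA per cell cannot be told apart.

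The promoters of 4 members are printed because they hold the sequence p53 recognises, the p53 consensus decamer of 10 bases, of which a bound site usually carries a pair. The windows run from 250 bases before to 50 bases after each RefSeq start on GRCm38.p6 (mm10), written 5′ to 3′ on the strand of the gene, with every decamer in capitals. The decamer has the same form on both strands, so a match on either strand is a match on the other. Only exact matches are in capitals, so a near match stays in lower case. Cdkn1a has 2 RefSeq starts, and the window of the upstream one (chr17:29090729-29091028, plus strand) is printed. It holds 2 decamers, which start 73 and 51 bases upstream of that start and are parted by 12 bases. Directly after the second of these stands a near match, left in lower case. The windows of Mdm2 (chr10:117710709-117711008, minus strand), Bax (chr7:45466849-45467148, minus strand) and Trp53 itself (chr11:69580109-69580408, plus strand) hold 1 each, at 186, 201 and 75 bases upstream.
Cdkn1a: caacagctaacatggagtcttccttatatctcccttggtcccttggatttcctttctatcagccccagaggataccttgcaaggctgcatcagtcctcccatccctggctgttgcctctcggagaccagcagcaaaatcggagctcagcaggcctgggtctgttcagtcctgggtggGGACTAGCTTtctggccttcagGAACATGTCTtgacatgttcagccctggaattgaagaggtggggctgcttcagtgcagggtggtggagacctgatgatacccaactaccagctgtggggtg
Mdm2: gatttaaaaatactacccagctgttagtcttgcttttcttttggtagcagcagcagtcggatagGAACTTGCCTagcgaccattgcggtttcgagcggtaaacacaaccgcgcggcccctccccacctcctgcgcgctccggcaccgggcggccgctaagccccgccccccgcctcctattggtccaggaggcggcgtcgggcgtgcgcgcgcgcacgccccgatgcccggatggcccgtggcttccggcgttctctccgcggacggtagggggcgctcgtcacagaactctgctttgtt
Bax: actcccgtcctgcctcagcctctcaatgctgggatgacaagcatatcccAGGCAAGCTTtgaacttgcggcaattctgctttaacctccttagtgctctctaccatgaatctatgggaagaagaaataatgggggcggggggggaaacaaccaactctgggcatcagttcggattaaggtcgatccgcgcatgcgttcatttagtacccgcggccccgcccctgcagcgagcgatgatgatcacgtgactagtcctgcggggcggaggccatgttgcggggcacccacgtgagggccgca
Trp53: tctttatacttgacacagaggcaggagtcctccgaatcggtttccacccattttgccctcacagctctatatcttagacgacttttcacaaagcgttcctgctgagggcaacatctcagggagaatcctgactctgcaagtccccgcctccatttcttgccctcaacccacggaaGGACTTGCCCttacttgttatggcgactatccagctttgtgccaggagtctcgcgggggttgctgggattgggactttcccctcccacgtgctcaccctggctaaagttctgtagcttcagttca

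RefSeq windows were matched for 8 of the 9 members, 14 windows in all, and 4 of the 14 held a decamer. Across all 32851 mouse windows 8.36% held 1 or more, and 24 windows held a pair parted by at most 13 bases, the printed Cdkn1a window among them. The windows of Bbc3, Bcl2, Bcl2l1 and Bcl2l11 and the second window of Cdkn1a held no such letters, and Pmaip1 had no window. A match describes the sequence only, and binding was not measured here.

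FGF2 was compared with no FGF2 to ask whether the RNA of p53, of its targets and of the apoptosis regulators differed between the cultures. Of the 9 members, 3 passed an adjusted p-value of 0.05 in the quasi-likelihood test of edgeR, with the Benjamini-Hochberg adjustment over all 17144 genes tested. Trp53 and Bcl2l11 rose with FGF2 and Pmaip1 fell, while Cdkn1a, Mdm2, Bax, Bbc3, Bcl2 and Bcl2l1 did not pass. All 9 members passed the expression filter. The share of members called was 33.3%, against a background of 40.5% of all genes called in either direction, 20.7% higher and 19.9% lower, and a share below the background is no result about the members. The libraries of the groups did not overlap for 5 of the 9 members and for 67.0% of all genes. The median log2 fold change of the members was 0.05 (FGF2 over no FGF2, as throughout), and that of all genes tested was -0.00082.

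**Figure D1:**
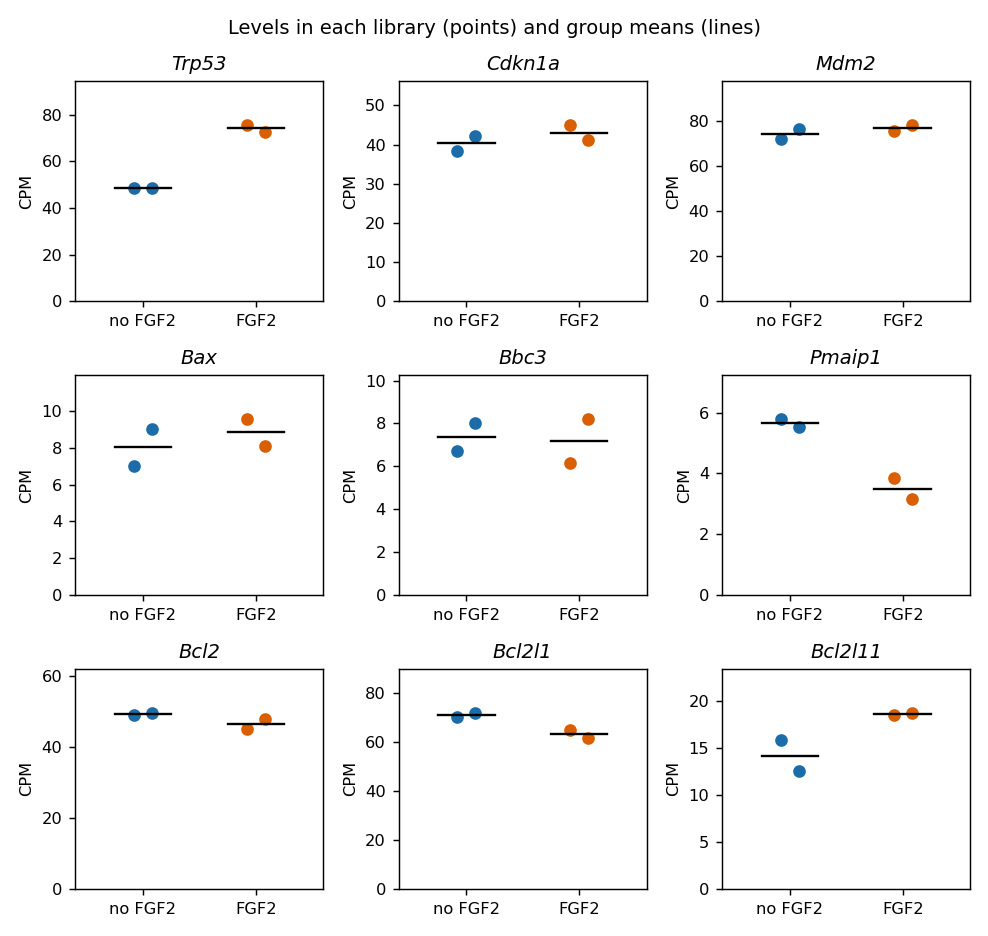
Level of each member in CPM (vertical axis, from 0) in the 2 libraries of each group (points) with the group mean (line). The Trp53 points lie at 72.8 to 75.6 CPM with FGF2 and near 48.5 CPM without it, Pmaip1 shows the opposite order, and the Cdkn1a, Mdm2, Bax and Bbc3 points of the groups overlap.

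Trp53 RNA was higher with FGF2. The gene (ENSMUSG00000059552) lies at chr11:69580359-69591873 on the plus strand of mm10. Its level was 75.6 and 72.8 CPM in the libraries with FGF2, from 688 and 718 counts, and 48.4 and 48.5 CPM in those without, from 510 and 527 counts. Both libraries with FGF2 lay above both libraries without it, and the gap between the groups was far wider than the gap inside either. The means were 74.2 ± 1.99 and 48.5 ± 0.0965 CPM (SD, n = 2 libraries each), a difference of 53.1%. The log2 fold change was 0.61 (SE 0.08, 95% confidence interval 0.45 to 0.77, edgeR adjusted p = 9.96e-13). The fold was 1.53, with an interval of 1.37 to 1.71. DESeq2 gave an adjusted p of 4.12e-06 and limma-voom 6.76e-12. Leaving out any 1 library kept the log2 fold change at 0.58 to 0.64. A processed copy, Trp53-ps, shares a stretch of 353 bases with Trp53 at 97.7% identity and held 2 and 2 counts with FGF2 and 0 and 0 without.

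Mdm2, the ligase that degrades p53 and a gene that p53 activates, did not differ beyond the spread. Mdm2 (ENSMUSG00000020184, chr10:117688875-117710758, minus strand) lay at 75.8 and 78.4 CPM with FGF2 and at 72.2 and 76.5 CPM without. The 2 groups overlapped. The means were 77.1 ± 1.80 and 74.4 ± 2.99 CPM (SD, n = 2), and the log2 fold change was 0.05 (SE 0.07, edgeR adjusted p = 0.618). Its 95% interval, 0.94 to 1.15 fold, leaves out a change of the size seen for Trp53.

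Cdkn1a, whose product p21 holds cells before DNA synthesis, was likewise not past the threshold. The paired decamers shown above lie in the window of its upstream RefSeq start, and the window of its other start holds none. Cdkn1a (ENSMUSG00000023067, chr17:29090976-29100727, plus strand) was found at 45.0 and 41.1 CPM with FGF2 and at 38.3 and 42.3 CPM without, with overlapping groups. The means were 43.0 ± 2.75 and 40.3 ± 2.85 CPM (SD, n = 2). The log2 fold change was 0.09 (SE 0.10, edgeR adjusted p = 0.480), and the interval ran from 0.94 to 1.22 fold. An antisense gene, AC167363.2, overlaps 273 bases of its exons and held 3 and 4 counts with FGF2 and 0 and 1 without.

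The ratio of Mdm2 to Trp53 counts within a library does not depend on how libraries are scaled against each other. On the log2 scale it was 0.0042 and 0.11 with FGF2 and 0.58 and 0.65 without, so that the groups did not overlap. The difference of the means was -0.56, and the exact permutation test (two-sided) gave p = 0.33, the smallest value that 2 against 2 libraries allow (0.44 after adjustment over the 4 ratios examined). The difference lay between -0.61 and -0.51 with any 1 library left out.

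Among the pro-apoptotic members, the effector Bax and the BH3-only gene Bbc3 stayed within their spread. Bax (ENSMUSG00000003873, chr7:45461697-45466898, minus strand) measured 9.56 and 8.11 CPM with FGF2 and 7.02 and 9.03 CPM without. Its log2 fold change was 0.13 (SE 0.21, edgeR adjusted p = 0.655), with an interval of 0.83 to 1.46 fold. Bbc3 (ENSMUSG00000002083, chr7:16308393-16318205, plus strand) measured 6.16 and 8.21 CPM with FGF2 and 6.74 and 8.01 CPM without. Its log2 fold change was -0.03 (SE 0.22, edgeR adjusted p = 0.926), with an interval of 0.72 to 1.32 fold. The groups overlapped for both genes, which rest on 56 to 98 counts a library, and the intervals leave room for moderate changes either way at this depth. The sign of both estimates turned with the library left out. Bax was at -0.04 without replicate 1 of the group without FGF2, and Bbc3 was at 0.15 without replicate 1 of the FGF2 group and at 0.09 without replicate 2 of the other. The gene Gm45808 covers 192 exonic bases of Bax on the same strand, held 0 counts in every library, and reads there could be lost to both genes.

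Pmaip1, which encodes the BH3-only protein NOXA, was lower with FGF2. Pmaip1 (ENSMUSG00000024521, chr18:66458533-66465565, plus strand) lay at 3.85 and 3.14 CPM with FGF2, from 35 and 31 counts. Without FGF2 it lay at 5.79 and 5.53 CPM, from 61 and 60 counts. Both libraries with FGF2 were below both others. The means were 3.50 ± 0.498 and 5.66 ± 0.186 CPM (SD, n = 2), 1.62-fold lower with FGF2. The log2 fold change was -0.70 (SE 0.29, 95% confidence interval -1.26 to -0.13, edgeR adjusted p = 0.0398). The call was near the threshold and was lost with DESeq2 (adjusted p = 0.284), with limma-voom (0.0553) and with no expression filter (0.0647). It was also lost without FGF2 replicate 2, where the log2 fold change was -0.56, and without either library of the other group, at -0.67 without its replicate 1 and -0.73 without its replicate 2.

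Bcl2l11, which encodes the BH3-only protein BIM, was higher with FGF2. The gene (ENSMUSG00000027381, chr2:128126038-128162547, plus strand) lay at 18.5 and 18.8 CPM with FGF2, from 168 and 185 counts. Without FGF2 it lay at 15.9 and 12.5 CPM, from 167 and 136 counts. The FGF2 libraries agreed closely and lay above both others, which differed from each other by more than the gap between the groups at its narrowest. The means were 18.6 ± 0.207 and 14.2 ± 2.35 CPM (SD, n = 2), a difference of 31.2%. The log2 fold change was 0.39 (SE 0.15, 95% confidence interval 0.10 to 0.69, edgeR adjusted p = 0.0233). The call was lost with DESeq2 (adjusted p = 0.266) and without FGF2 replicate 1 (log2 fold change 0.40) or FGF2 replicate 2 (0.38). The size rested on both libraries without FGF2, with 0.23 when replicate 2 was left out (edgeR adjusted p = 0.390) and 0.57 when replicate 1 was.

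The survival genes Bcl2 and Bcl2l1 lay slightly lower with FGF2, but neither passed the test. Bcl2l1 (ENSMUSG00000007659, chr2:152780668-152831728, minus strand), whose long form BCL-XL protects young neurons, was found at 64.9 and 62.0 CPM with FGF2 and 70.2 and 72.1 CPM without. The groups did not overlap. The means were 63.4 ± 2.05 and 71.2 ± 1.33 CPM (SD, n = 2), and the log2 fold change was -0.17 (SE 0.08, edgeR adjusted p = 0.0742), with an interval of 0.80 to 0.99 fold. Upper quartile and total count scaling put it past the threshold, both at a log2 fold change of -0.19. Counts per gene do not tell the BCL-XL transcript from the short one of opposite function. Bcl2 (ENSMUSG00000057329, chr1:106538178-106714274, minus strand) was found at 45.2 and 48.0 CPM with FGF2 and 49.0 and 49.7 CPM without, again with no overlap. Its log2 fold change was -0.08 (SE 0.09, edgeR adjusted p = 0.504), and the interval of 0.83 to 1.07 fold leaves room for a small fall.

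**Figure D2:**
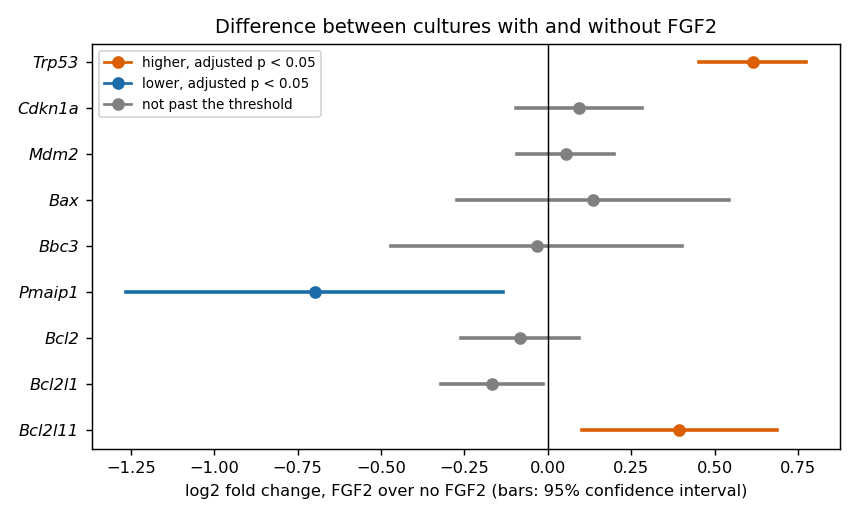
Log2 fold change of each member, FGF2 over no FGF2 (points), with the 95% confidence interval of the edgeR fit (bars), coloured by the call at an adjusted p of 0.05. Trp53 at 0.61 and Bcl2l11 at 0.39 lie right of 0, Pmaip1 at -0.70 lies left of it, and the intervals of Cdkn1a, Mdm2, Bax, Bbc3 and Bcl2 cross 0.

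The balance of pro-apoptotic to survival RNA was followed as the log2 ratio of counts within a library. The ratio of Bax to Bcl2 was -2.23 and -2.55 with FGF2 and -2.79 and -2.45 without, with overlapping groups (difference 0.23, exact permutation p = 0.667, two-sided). The ratio of Bax to Bcl2l1 was -2.75 and -2.92 against -3.30 and -2.99, and that of Bcl2l11 to Bcl2l1 was -1.81 and -1.72 against -2.14 and -2.52. Neither of these overlapped, with both libraries with FGF2 above both others. The differences were 0.31 and 0.57, each with an exact permutation p of 0.33 (0.44 adjusted over the 4 ratios), which is as low as this design can go. Leaving out any 1 library put the Bax to Bcl2 difference between 0.06 and 0.40, that of Bax to Bcl2l1 between 0.15 and 0.47 and that of Bcl2l11 to Bcl2l1 between 0.38 and 0.75. The low ends of the Bax ratios came without replicate 1 of the group without FGF2.

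**Figure D3:**
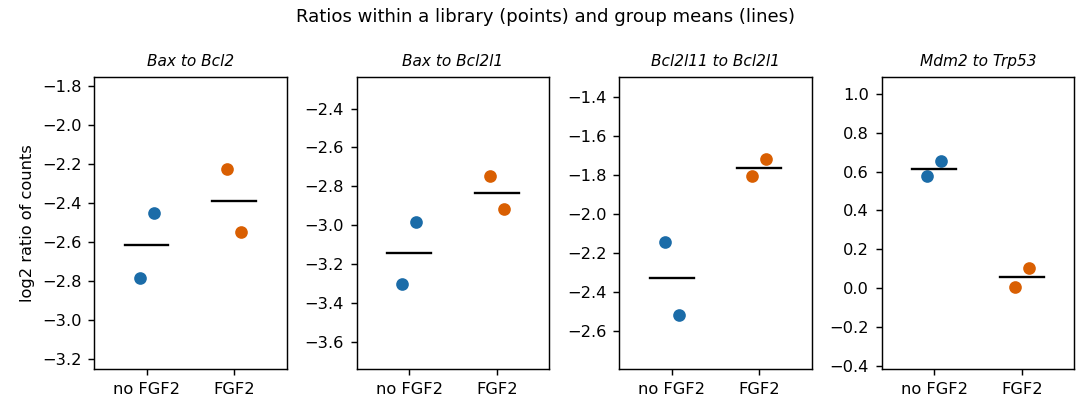
Log2 ratio of the counts of a pair of members within each library (points; vertical axes differ between panels and do not start at 0) with the group mean (line). The Bcl2l11 to Bcl2l1 ratio is -1.81 and -1.72 with FGF2 and -2.14 and -2.52 without, the Mdm2 to Trp53 ratio is lower with FGF2, and the Bax to Bcl2 points overlap.

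Levels of different genes were compared per length, as CPM per kb of exons. Without FGF2 the order ran from Bcl2l1 (15.5 CPM per kb) over Mdm2 (14.6), Trp53 (11.99), Cdkn1a (11.3), Bcl2 (5.39), Bax (5.09), Bbc3 (3.47) and Pmaip1 (2.07) to Bcl2l11 (1.77). With FGF2 Trp53 moved to the top at 18.3 CPM per kb, followed by Mdm2 (15.2), Bcl2l1 (13.8), Cdkn1a (12.1), Bax (5.61), Bcl2 (5.09), Bbc3 (3.38), Bcl2l11 (2.32) and Pmaip1 (1.28). The libraries of Bax and Bcl2 overlapped in both groups, so their order cannot be told, while the libraries of the other neighbours did not overlap. By their means, Pmaip1 and Bcl2l11 exchanged the last places between the groups. Without FGF2 their closest libraries lay at 2.02 (Pmaip1, 60 counts) and 1.97 (Bcl2l11) CPM per kb, so their order there is uncertain. Exonic length counts every annotated exon, which lowers the value of genes with long or rarely used ends such as Bcl2 and Bcl2l11.

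**Figure D4:**
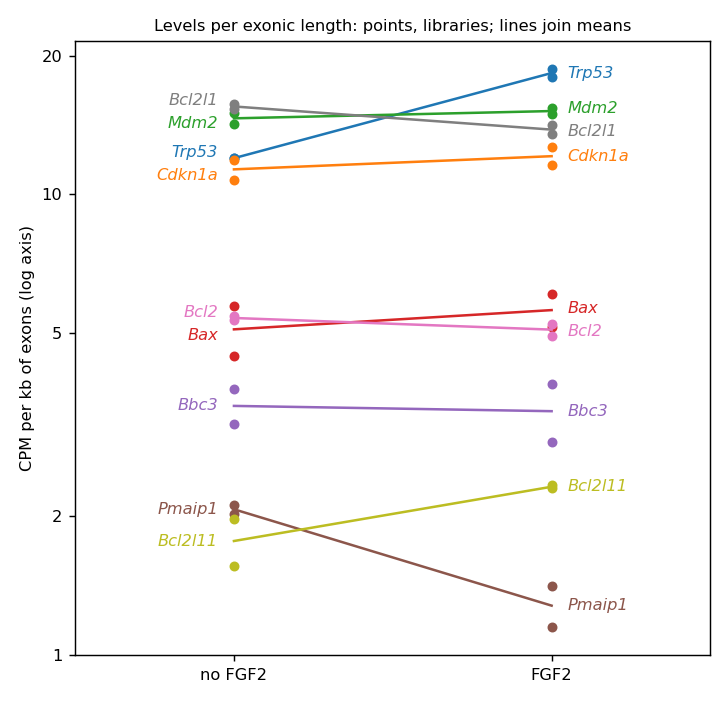
Level of each member in CPM per kb of exons (vertical log axis) in each library (points), with lines that join the group means without and with FGF2. The Trp53 line climbs from 11.99 to 18.3 and crosses those of Mdm2 and Bcl2l1, and the lines of Pmaip1 and Bcl2l11 cross at the bottom.

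Other genes of the pathway were described from lists of 76 genes, of which 69 were tested and 37 called, 23 higher and 14 lower with FGF2. Called were 52.2% of the tested p53 targets, 35.7% of the p53 regulators and 50% (4 of 8) of the BCL-2 family. For the apoptosome list the share was 61.1%, and for the cyclin-dependent kinase (CDK) inhibitors 83.3% (5 of 6). Of all genes 40.5% were called (20.7% higher, 19.9% lower). The lists were chosen with earlier results of these data known, so a share above that of all genes is no result about them. Of 25 further p53 targets 23 were tested, and 6 rose, 6 fell and 11 did not pass, with a median log2 fold change of 0.06. The largest rise was that of Fas, the death receptor, at 44.0 and 44.0 CPM with FGF2 and 6.93 and 7.00 CPM without (log2 fold change 2.66, SE 0.14, edgeR adjusted p = 1.51e-77). Tnfrsf10b, the mouse receptor for the death ligand TRAIL, rose by 0.77 on the log2 scale, Btg2, an antiproliferative gene, by 0.65, and Pidd1, a death domain adaptor, by 0.62. The targets that fell most were Ckap2, a spindle protein of dividing cells (-1.29), the kinase gene Plk2 (-0.62), the reductase gene Dcxr (-0.52) and Sesn2, a stress-induced inhibitor of mTOR signalling (-0.42). The call of Dcxr was lost with DESeq2 (adjusted p = 0.282), with no expression filter and with 3 of the 4 libraries left out singly, and those of Pidd1 and Sesn2 were each lost with 1 library left out. Fas stood far from the rest of the list. The proliferation genes given above were also lower with FGF2, and their part in the fall of Ckap2 was not tested.

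The 11 targets that did not pass ran from Plk3 at -0.39 to Epha2 at 1.37 on the log2 scale. The groups did not overlap for these 2 genes, nor for Zmat3, Rrm2b and Eda2r. Epha2 lay just outside the threshold (edgeR adjusted p = 0.0541), on 16 and 14 counts with FGF2 and 6 and 7 without. Apart from Plk3 and Epha2, the log2 fold changes were Ddb2 at -0.11, Zmat3 at -0.09, Trp53inp1 at -0.04, Ppm1d at 0.01, Ccng1 at 0.06, Phlda3 at 0.07, Sesn1 at 0.11, Rrm2b at 0.12 and Eda2r at 0.20. Promoter windows were matched for 18 genes of this list, and 7 of them held a p53 decamer. Those were Ccng1, Sesn1 and Ppm1d, which did not pass, Polk, which rose (0.31), and Aen (-0.32), Ei24 (-0.19) and Ckap2, which fell. Targets without a decamer were not set beside these, and a link between decamer and direction was not tested.

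Of 14 genes that regulate or partner p53, 3 rose, 2 fell and 9 did not pass, with a median log2 fold change of 0.10. Hipk2, a kinase that phosphorylates p53, was found at 553 and 515 CPM with FGF2 and 338 and 341 CPM without (log2 fold change 0.65, SE 0.04, edgeR adjusted p = 3.63e-61). Atm, the kinase that signals DNA breaks, rose by 0.37 on the log2 scale. Usp7, a deubiquitinase that acts on MDM2 and p53, and Trp53bp1, a DNA repair scaffold, fell by 0.25 and 0.19. The remaining called gene was Mdm4, the partner of MDM2, at 0.15 with overlapping libraries.

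In the rest of the BCL-2 family, 8 of 13 genes were tested, 3 rose, 1 fell and 4 did not pass, with a median log2 fold change of 0.07. The fall was that of Hrk, a BH3-only gene of neurons, at 27.3 and 25.5 CPM with FGF2 and 62.6 and 56.1 CPM without (log2 fold change -1.17, SE 0.10, edgeR adjusted p = 6.94e-31). The summed neuronal markers also lay lower with FGF2, as given above. Bmf (0.78) and Bid (0.39), both BH3-only genes, and the survival gene Mcl1 (0.19) rose. The BH3-only genes, members included, therefore went both ways: Bcl2l11, Bmf and Bid rose, Pmaip1 and Hrk fell, and Bbc3 and Bad did not pass. The calls of Bid, Bmf and Mcl1 were lost with DESeq2 and with 1 or more libraries left out.

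All 18 genes of the apoptosome, the caspases and the inhibitors of apoptosis (IAPs) were tested, and 7 rose, 4 fell and 7 did not pass, with a median log2 fold change of 0.12. The largest rise was that of Birc3, an IAP that acts at death receptor complexes, at 12.8 and 13.9 CPM with FGF2 and 1.52 and 1.01 CPM without (log2 fold change 3.39, SE 0.28, edgeR adjusted p = 4.97e-32). Its relative Birc2 rose by 0.80, Cflar, an inhibitor of caspase-8, by 0.96, and Casp8 itself by 1.20 on the log2 scale. Those that fell included Endog, a mitochondrial nuclease (-0.99), Birc5, the survivin gene of dividing cells (-0.55), and Cycs, the cytochrome c that starts the apoptosome (-0.49). The call of Birc5 was lost in 6 of 12 alternatives, DESeq2 (adjusted p = 0.304) and limma-voom (0.0672) among them, and its log2 fold change was -0.29 without replicate 1 of the group without FGF2. The calls of Endog and Casp8 were lost with DESeq2 (adjusted p = 0.216 and 0.0837) and with 1 or more libraries left out. Fadd, the adaptor that joins Fas to caspase-8, was at 0.21 and did not pass.

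Of 6 further CDK inhibitors, 4 rose, 1 fell and 1 did not pass, with a median log2 fold change of 1.14. Cdkn2b lay at 14.0 and 11.4 CPM with FGF2 and 1.80 and 1.84 CPM without (log2 fold change 2.78, SE 0.26, edgeR adjusted p = 1.11e-24), and Cdkn1c at 7.36 and 5.27 against 1.04 and 0.92 CPM (2.67, SE 0.37, edgeR adjusted p = 9.14e-12). Cdkn1b rose by 0.27 on the log2 scale and Cdkn2d fell by 0.63. The call of Cdkn2d was lost with DESeq2 (adjusted p = 0.161) and without either library of the group without FGF2, and that of Cdkn1b without replicate 1 of that group. Cdkn2a was also called, on 11 and 11 counts with FGF2 and 5 and 1 without. The p21 gene Cdkn1a, with an upper interval bound of 1.22 fold, did not show a rise of the size seen for Cdkn2b and Cdkn1c.

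**Figure D5:**
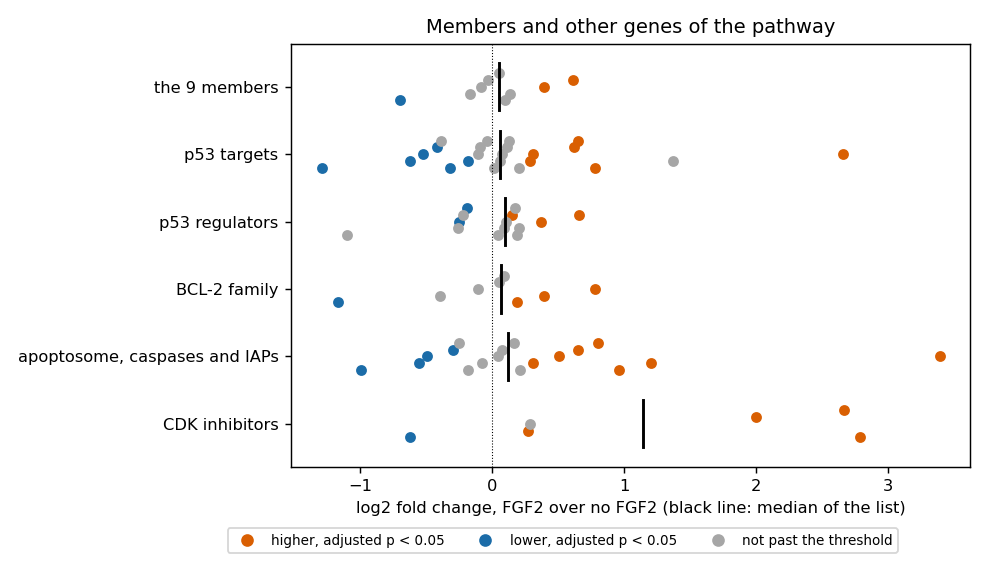
Log2 fold change, FGF2 over no FGF2, of each tested gene (points, coloured by the call at an adjusted p of 0.05, spread vertically for sight only) in the 9 members and 5 lists, with the median of each list (black line). The medians of the members and of the first 4 lists lie between 0.05 and 0.12, that of the CDK inhibitors lies at 1.14, and single genes such as Fas (2.66), Birc3 (3.39) and Hrk (-1.17) stand far from their list.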

How the data were processed

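The 4 RNA libraries (2 with FGF2, 2 without) were sequenced by the authors as read pairs, after a total RNA library kit. Per the submitters' processing notes, HISAT2 2.1.0 and HTSeq 0.11.2 were used with mm10, and the paper names a Samtools mapping quality filter. The annotation release and strand setting are not given in the sources used here. The deposited values are raw counts per gene, without normalization. Reads mapping to several places are removed by such a filter, so genes with near-identical copies can be counted too low. From the values, strands were kept apart: 0 of 47 genes that lie inside another on their own strand had a count, and 63 of 173 that lie inside one on the other strand did.

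Of 55421 listed genes, 55240 matched GENCODE M21, and 5 tallies that name no gene were left out (read pairs in no feature were 43.2% to 45.9% of a library). The test was edgeR 4.0.16 (quasi-likelihood, TMM, factors 0.992 to 1.01, its expression filter, Benjamini-Hochberg over 17144 genes) in R 4.3.3, tested on simulated data. Alternatives were other scalings and filters, DESeq2 1.42.0, limma 3.58.1 voom, the replicate number as a block, each library left out, and a threshold of 0.01. Ratios used a prior count of 1 and an exact permutation test. Replicates differed by more than sampling noise (chi-square per degree of freedom 2.28 with FGF2, 1.76 without) and were kept separate.

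Members and lists were chosen with earlier results of these data known. Named from each list were up to 4 genes with the largest rise and up to 4 with the largest fall among those past the threshold, averaging 1 CPM or more, whose groups did not overlap. Mdm4, Cdkn2a, Fadd, Bad, the targets not past the threshold, those with a decamer and the untested genes were named after their values were seen. So were the single meningeal, mural and endothelial markers. A gene that the rule takes is not reported here. Similar transcripts were sought with BLAST 2.17.0 (at least 100 bases, 95% identity), and promoter windows come from RefSeq.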

Additional observations from a re-analysis of the deposited data

How the results depend on the processing

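Of the 9 members, 3 were called in the main test, 4 with upper quartile or total count scaling, 2 with no expression filter or limma-voom, 1 with DESeq2, 1 at an adjusted p of 0.01, 3 with the replicate block, and 1 to 2 with a library left out. Only Trp53 was called in every alternative run. Pmaip1 was at -0.69 with no expression filter, -0.70 with DESeq2 and -0.70 with limma-voom, none past the threshold, and at -0.85 to -0.56 with a library left out. Bcl2l11 was at 0.39 with DESeq2, not past the threshold, and at 0.23 to 0.57 with a library left out. Bcl2l1 passed with upper quartile (-0.19) and total count (-0.19) scaling. Bax ran from -0.038 to 0.32 and Bbc3 from -0.26 to 0.15 with a library left out, and both changed sign there. In the pathway lists 37 genes were called in the main test and 22 with DESeq2. The latter called 7 p53 targets (12 in the main test), 4 p53 regulators (5) and 1 gene of the BCL-2 family (4). It also called 7 genes of the apoptosome list (11) and 3 CDK inhibitors (5). With a library left out, the counts were 26 to 31 in all, 7 to 11 for p53 targets, 2 to 3 for the BCL-2 family and 3 to 4 for CDK inhibitors. Of 28 named pathway genes, 17 kept direction and call in all 12 alternatives and 11 lost the call in at least 1. Over all genes DESeq2 called 4007 against 6949. The cause of these differences was not tested. Deviations from the group mean correlated at 1.3e-05 between libraries of the same number and at -1.3e-05 between those of different number. With 2 libraries a group these values mirror each other, so they cannot tell whether a number marks a shared origin. The replicate block changed no member's call. Depth limits Pmaip1, Bax and Bbc3, with 31 to 98 counts a library, and other scalings moved the median of all genes by at most 0.026 on the log2 scale.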

Other observations

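Of the 76 further pathway genes, 7 did not pass the expression filter. They were Perp, a p53 target of cell junctions, at 4 and 9 counts in the FGF2 libraries and 11 and 9 in the others, and Gdf15, a stress-induced cytokine and p53 target, at 2 and 0 counts in the FGF2 libraries and 5 and 8 in the others. The others belong to the BCL-2 family: Bcl2a1a, Bcl2a1b, Bcl2a1d, Bcl2l10 and Bik held 0 to 4 counts in every library, Bcl2a1b held 0 in all of them, and the Bcl2a1 copies are near identical, so that their reads can be lost.

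Of the 85 members and pathway genes searched, 30 share a stretch of at least 100 bases with another gene. Cycs shares such a stretch with 51 genes, the longest of 946 bases with Gm10053, Cflar with 167 genes and Tnfrsf10b with 118. Others include Fadd (48 genes), Birc5 (22) and Birc3 (15). At 100% identity, Trp53bp1 shares 1877 bases with Tubgcp4, and Bid shares 629 bases with Bcl2l13. The levels of these 30 genes are uncertain by an amount that was not measured.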
